A study of Ictalurus punctatus and Ictalurus punctatus x Ictalurus furcatus with 18 samples.

Results

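Strains of channel catfish (Ictalurus punctatus) differed in liver at a high temperature in 273 of 96799 transcripts tested (0.282%). That number ran from 60 to 821 over the fits tried, so the extent of the difference is not settled. This account compares 6 of the 18 libraries of the series. Libraries H1, H4 and H7 came from Red River fish and H3, H5 and H9 from Delta Select fish. All of these fish were fingerlings held for 6 weeks in water that cycled each day between 32 and 36 °C, so there is no untreated group in the comparison itself. The members were taken by their labels, with no measured value used. A library holds liver RNA pooled over 3 fish that shared a tank, as the labels' protocols give it, so n counts tanks and not fish. The other 12 libraries enter the fit and are read here where they bear on the comparison. They are Delta Select hybrids at 32 to 36 °C (H2, H6 and H8) and at 27 to 31 °C (L1, L4 and L7), Red River fish at 27 to 31 °C (L2, L6 and L9) and Delta Select channel catfish at 27 to 31 °C (L3, L5 and L8).

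The liver of a fish makes most plasma proteins, stores glycogen and lipid and clears foreign compounds, and as fish take the temperature of their water its work changes with the season. Channel catfish strains are farmed populations with separate histories of origin and selection. The hybrid libraries are labelled as crosses of channel catfish with blue catfish (Ictalurus furcatus), a cross that is widely farmed in the United States. The deposited counts are for sequences assembled from reads. Each is named by a k-mer size and a number, and none of the 144746 identifiers matched a gene of the channel catfish reference table (assembly Coco_2.0). The files do not pair identifiers with genes, so genes, functions, lengths and sequences are not given here, the liver label could not be checked against marker genes, and a call below is a transcript and not a gene. In such counts, less RNA from a gene and a sequence variant whose reads fit another assembled transcript cannot be told apart. Nor can fewer cells of a type and less RNA per cell.

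The 6 libraries held between 38550145 (H7) and 76146359 (H3) reads on transcripts. No pair of libraries within a strain agreed within sampling noise, with chi-square values per degree of freedom between 9.795 and 34.11. The 100 most abundant transcripts took 26.97% to 27.68% of reads in the Red River libraries and 24.53% to 26.07% in the Delta Select libraries, without overlap.

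Whether any compared library carries the transcripts of hybrid fish as a set was checked first, because L3 and L5, labelled as Delta Select channel catfish, do. Hybrid-type transcripts were chosen at the low temperature only, as those with at least 5 CPM (the read count relative to the TMM-scaled library size) in each hybrid library and at most 0.1 CPM in each Red River library. There were 32 of them. At 1 CPM or more, 0 of the 32 were present in H1, H4, H7 and H3, and 3 of the 32 (9.38%) in each of H5 and H9. All 32 were present in H2, H6 and H8, 30 in L3, 29 in L5 and 0 in L8. The median level of the set was 0.0262 CPM or less in H1, H4 and H7 and 0.0292 CPM or less in H3, H5 and H9. It was 8.04 CPM in L3 and 3.03 CPM in L5. No compared library therefore held the set, but a few of its members were held by some Delta Select tanks. The 3 present transcripts were the same in H5 and H9, at 9.689 to 16.67 CPM in H5 and 6.091 to 10.02 CPM in H9, and at most 0.06311 CPM in H3. The other 29 reached at most 0.6043 CPM in any of the 6 libraries.

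The pair of hybrid-type transcripts with the highest Delta Select mean shows this split between tanks. The transcript k86:801792 had 0, 1 and 0 reads in the Red River libraries H1, H4 and H7, and 5, 855 and 500 reads in the Delta Select libraries H3, H5 and H9. The transcript k86:344399 had 2, 2 and 0 reads in the same Red River libraries, and 4, 648 and 349 in the Delta Select libraries. Both were thus at the level of single reads in H3 and in Red River fish, and at 349 reads or more in H5 and H9. Neither was called between the strains, at log2 fold changes of -9.77 ± 2.69 and -7.65 ± 2.30 (SE; edgeR, adjusted p = 0.2217 and 0.2751), with the Delta Select libraries spread from 4 to 855 reads. In L8, the remaining Delta Select library without the hybrid set, they had 1 and 0 reads.

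Across all transcripts the strains separated, but by little more than tanks of 1 strain did. Of the variance of log2(CPM + 0.5) among the 6 libraries, 31.02% lay on the first principal component. Its scores were 55.34 (H1), 26.24 (H4) and 35.69 (H7) in Red River fish and -46.97 (H3), -51.07 (H5) and -19.22 (H9) in Delta Select fish. The next component carried 24.56% and set H9, at -79.75, apart from the other 5 libraries, at 2.257 to 29.01. The root mean square log2 difference was 0.3567 to 0.4129 over the 9 pairs of libraries from different strains. It was 0.2938 to 0.3493 over the 3 Red River pairs, below all pairs between strains. Over the Delta Select pairs it was 0.2957 for H3 and H5 but 0.3881 and 0.3819 for the pairs with H9, inside the range between strains. H9 stands apart from the other Delta Select libraries, and the calls, the restricted transcripts and the low-temperature values of called transcripts are also given without it.

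**Figure D1:**
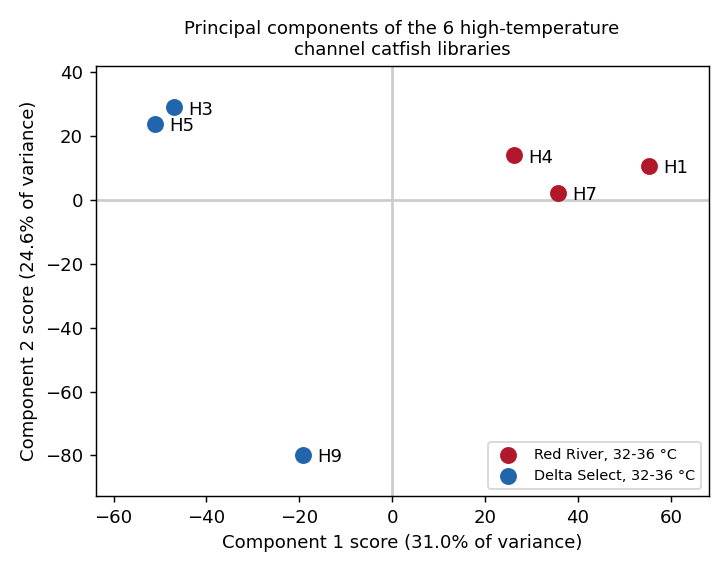
Scores of the 6 high-temperature channel catfish libraries on the first and second principal components of log2(CPM + 0.5) over 96799 transcripts, with 1 point per library. Red River libraries lie at 26.24 or above on component 1 and Delta Select libraries at -19.22 or below, while H9 lies apart on component 2 at -79.75.

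At an equal depth of 38550145 reads, the Red River libraries had fewer transcripts with a read than the Delta Select libraries. The numbers were 117826 (H1), 117668 (H4) and 118072 (H7) in Red River fish, and 118841 (H3), 118276 (H5) and 120161 (H9) in Delta Select fish. The groups did not overlap, at 117855 ± 203.6 against 119093 ± 967.4 (SD, n = 3 each), and the two-sided exact permutation test gave p = 0.1, the smallest that 3 against 3 allows. The difference of -1237.3 transcripts was -703.2 without H9.

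At the high temperature Red River fish had higher levels of 126 transcripts (0.13%) and lower levels of 147 (0.152%) relative to Delta Select fish. Together these are 273 of the 96799 tested (0.282%; edgeR, adjusted p under 0.05). At an unadjusted p under 0.05 there were 8652 (8.94%). The Red River libraries lay wholly above the Delta Select libraries for 7620 transcripts (7.87%) and wholly below for 7837 (8.1%), called or not. The median log2 fold change was 1.85 among the higher (quartiles 1.16 and 3.18) and -1.94 among the lower transcripts (quartiles -2.57 and -1.38), against -0.00363 over all transcripts tested. Of the higher ones, 107 differed more than 2-fold, 58 more than 4-fold and 20 more than 16-fold as fitted. Of the lower ones, 135, 70 and 6 did.

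The number of calls depended on the libraries used more than on the scaling. It was 224 without H9 (79 higher and 145 lower), of which 136 were among the 273. With 1 compared library fewer, and the cause of the fall not tested, it was also 182 without H3, 106 without H1, 97 without H4, 60 without H7 and 115 without H5. It was 572 (0.591%) without L3 and L5, of which 270 were among the 273, with 286 in each direction, and 460 without L8. With only the 6 compared libraries filtered and fitted, 85420 transcripts were tested. It was then 206, of which 105 were among the 273. DESeq2 called 821, of which 272 were among the 273, and limma-voom 211, of which 177 were.

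Most of the large differences lay in transcripts with few reads. CPM is not corrected for length, so the levels used next rank reads and not molecules. Ranked by the mean of the strain with the higher level, 36 of the transcripts higher in Red River fish had 5 CPM or more, and 3 of these differed more than 4-fold. Of the lower ones 41 had 5 CPM or more in Delta Select fish, and 12 of these differed more than 4-fold. The other 55 and 58 transcripts past 4-fold were under 5 CPM in both strains. The 20 transcripts fitted as more than 16-fold higher in Red River fish had group means of 0.2232 to 15.07 CPM in Red River and at most 0.2221 CPM in Delta Select. For 5 of the 126 no Delta Select library of the high temperature had a read. Against a floor of 3 reads over that group they were at least 13.92-fold to at least 62.41-fold higher in Red River fish. With these bounds 19 and not 20 transcripts passed 16-fold, and the median log2 fold change stayed at 1.85. Among the 147 lower transcripts 0 lacked all Red River reads.

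**Figure D2:**
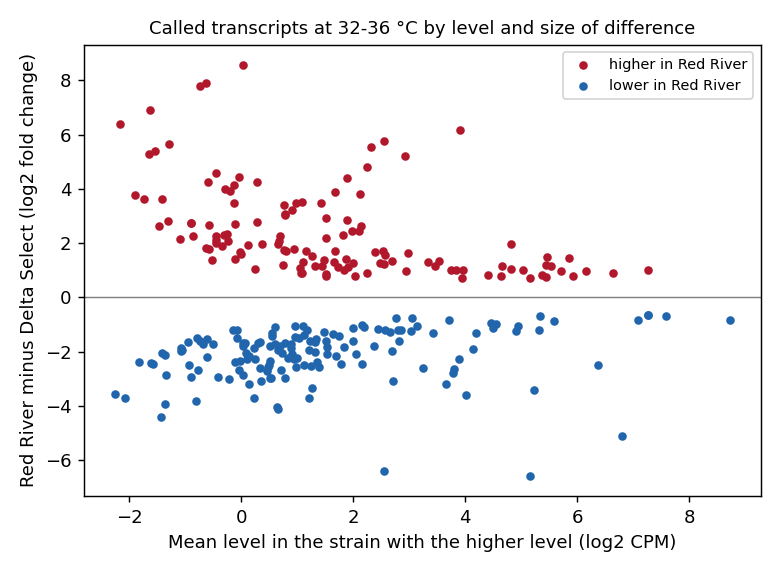
Called transcripts at 32 to 36 °C, with the log2 of the mean CPM in the strain of higher level on the horizontal axis and the log2 fold change (Red River minus Delta Select) on the vertical axis, 1 point per transcript. Of the 126 points above 0, 20 lie past 4 on the vertical axis, and of the 147 below 0, 6 lie past -4.

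Among called transcripts that averaged 3 or more on the log2 CPM scale over the 18 libraries, the largest differences higher in Red River fish were those of k74:1419179 and k70:1634662. That mean includes the hybrids, and the cut left out larger differences higher in Red River fish. An example averaged 2.38 on that scale, with means of 15.07 CPM in Red River and 0.222 CPM in Delta Select fish (log2 fold change 6.16). The sizes named here are therefore not the largest among all calls higher in Red River fish. The level of k74:1419179 was 31.23 (H1), 32.89 (H4) and 20.53 CPM (H7) in Red River fish, and 5.579 (H3), 9.045 (H5) and 6.973 CPM (H9) in Delta Select fish. Every Red River tank was above 20 CPM and no Delta Select tank reached 10 CPM, at means of 28.22 ± 6.70 and 7.199 ± 1.74 CPM (SD, n = 3 each). The log2 fold change was 1.97 ± 0.24 (SE; edgeR, adjusted p = 0.001427). The same strain order held at the low temperature, with 12.32 (L2), 21.20 (L6) and 10.41 CPM (L9) in Red River fish and 7.138 (L3), 8.257 (L5) and 8.593 CPM (L8) in Delta Select fish. Hybrids were low at either temperature, between 4.969 and 7.055 CPM, below every Red River library and overlapping the Delta Select ones.

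The level of k70:1634662 was 51.30 (H1), 41.08 (H4) and 39.32 CPM (H7) in Red River fish, and 12.09 (H3), 15.85 (H5) and 19.46 CPM (H9) in Delta Select fish. Its lowest Red River tank lay above its highest Delta Select tank, with a log2 fold change of 1.48 ± 0.20 (SE; edgeR, adjusted p = 0.002228). At the low temperature it was at 38.70 (L2), 42.39 (L6) and 50.19 CPM (L9) in Red River fish, and at 26.99 (L3), 20.64 (L5) and 23.20 CPM (L8) in Delta Select fish. The Red River mean was almost equal at both temperatures, at 43.90 CPM high and 43.76 CPM low. Hybrids had 11.56 to 19.29 CPM at the high and 21.32 to 28.44 CPM at the low temperature, below all Red River libraries. Both k74:1419179 and k70:1634662 stayed called under all 28 alternatives tried, at log2 fold changes of 1.81 to 2.16 and 1.31 to 1.66.

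By the same rule the largest differences lower in Red River fish were those of k82:1066308 and k90:1199776, near absent in that strain, where the mean over the 18 libraries includes the hybrids. The level of k82:1066308 was 0.2901 (H1), 0.3581 (H4) and 0.4709 CPM (H7) in Red River fish, and 13.71 (H3), 48.11 (H5) and 44.94 CPM (H9) in Delta Select fish. The log2 fold change was -6.58 ± 0.97 (SE; edgeR, adjusted p = 0.01841). Summed reads of each strain were also divided by the sum of its TMM-scaled library sizes. The ratio of these, Delta Select over Red River, was 87.8 (95% exact interval 66.3 to 119, for counting error only). It rests on 49 Red River reads. At the low temperature Red River fish had 0.8156 (L2), 0.5711 (L6) and 0.4224 CPM (L9), and Delta Select fish 226.1 (L3), 83.76 (L5) and 10.46 CPM (L8). Of these L3 and L5 carry the hybrid set. Hybrids had 288.3 to 398.5 CPM at the 2 temperatures, above every channel catfish library.

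The level of k90:1199776 followed the same order of groups. It was 0.04144 (H1), 0.1264 (H4) and 0.02616 CPM (H7) in Red River fish, from 2, 6 and 1 reads, and 2.789 (H3), 7.700 (H5) and 7.073 CPM (H9) in Delta Select fish. The ratio of summed reads, scaled in the same way, was 79.9 (41.9 to 175), and the log2 fold change was -6.39 ± 0.84 (SE; edgeR, adjusted p = 0.006273). L8 had 1.522 CPM against 0.1969 CPM or less in the Red River libraries of the low temperature, and hybrids had 15.10 to 24.38 CPM. A wider choice of hybrid-type transcripts took those with at least 2 CPM in each hybrid library of the low temperature. Their limit was 0.2 CPM in each Red River library there. The transcript k90:1199776 was among these 173, and was the only called transcript of them. It missed the stricter choice through L2, at 0.1969 CPM against a limit of 0.1 CPM. In both k82:1066308 and k90:1199776 H3 was the lowest of the Delta Select tanks, well under H5 and H9, and L8 was lower still. The call of k82:1066308 was lost without H1, H4 or H7 (adjusted p = 0.0985, 0.0865 and 0.0874), and that of k90:1199776 without H7 (adjusted p = 0.0510). Both were lost in limma-voom and with only the 12 channel catfish libraries fitted. The log2 fold changes over all 28 alternatives stayed between -6.97 and -6.31 and between -7.29 and -6.08, with adjusted p from 2.39e-14 to 0.148 and from 2.85e-12 to 0.224.

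**Figure D3:**
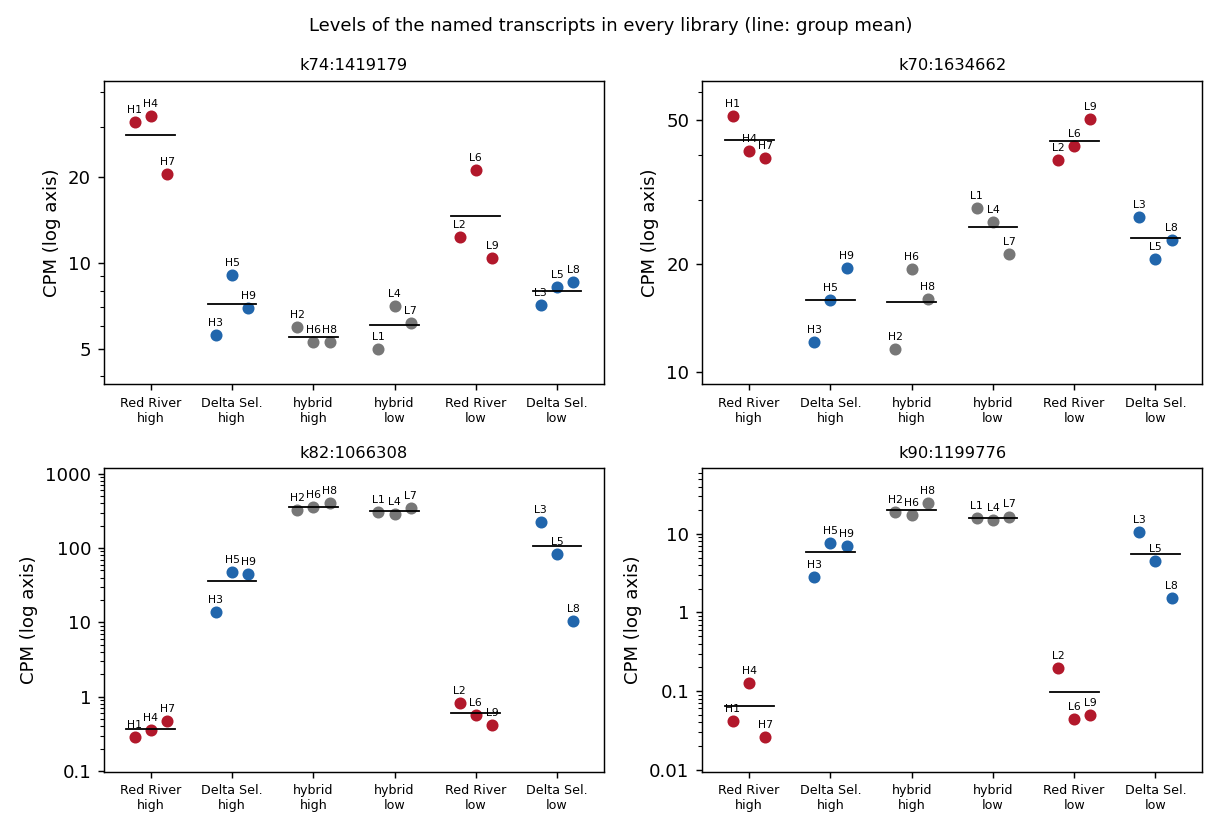
Levels of the named transcripts in CPM on a log axis, with 1 point per library, a line at each group's mean and the library code above each point. In the upper panels the Red River libraries lie above all others within a temperature, and in the lower panels they lie below 1 CPM while Delta Select libraries lie between 1.522 and 226.1 CPM. The highest of these is L3, which like L5 carries the hybrid set.

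Transcripts near absent in 1 strain and present in every tank of the other were few. With a mean under 0.5 CPM in 1 strain and more than 2 CPM in each library of the other, 8 transcripts were near absent in Delta Select fish, of which 5 were called, and 8 in Red River fish, of which 2 were called. Their mean levels in the strain that had them ran from 3.604 to 15.07 CPM for the Red River ones and from 2.868 to 35.59 CPM for the Delta Select ones. Without H9 there were 10 near absent in Delta Select fish (5 called) and 18 in Red River fish (6 called). At a mean under 0.2 CPM against more than 5 CPM there were 0 on each side. Of the 8 present in Red River fish, 7 had at least 1 CPM in every Red River library of the low temperature, 3 in L8, and 1 in every hybrid library of the low temperature. Of the 8 present in Delta Select fish, 0 had at least 1 CPM in every Red River library of the low temperature, 7 in L8, and 6 in every hybrid library of the low temperature. Only 7 of these 16 transcripts were called, where 0.282% of all transcripts tested were. All 16 were chosen by their levels in the same strains, and the matching low-temperature shares over all transcripts were not computed. These counts are therefore a description.

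The low-temperature libraries give a second reading of the called transcripts. They are outside the contrast, but the fit that called the transcripts took its spread from all 18 libraries, so a list called from the 6 compared libraries alone is given as well. L8 alone is used for Delta Select fish there, because L3 and L5 carry the hybrid set, so the low-temperature difference has no replicate on that side and no test. Of the 126 transcripts higher in Red River fish, 117 were also higher in Red River fish than in L8 at the low temperature, where 53% of all tested transcripts with a positive difference kept their direction. Of the 147 lower ones, 128 were lower at the low temperature as well, against 52.9%. L8 lay below all 3 Red River libraries for 106 of the 126 (29.1% over all transcripts tested) and above them for 111 of the 147 (29.5%). On the log2(CPM + 0.5) scale, which understates differences of sparse transcripts, the median difference of the 126 was 1.06 at the high and 0.66 at the low temperature. For the 147 it was -1.09 and -0.53. The transcripts were chosen by their difference at the high temperature, which favours a larger value there. A change with temperature is therefore not read from these medians. Against L3 and L5 in place of L8, 117 of the 126 and 118 of the 147 kept their direction. In the list called from the 6 compared libraries alone, 81 of 96 higher and 104 of 110 lower transcripts kept their direction in L8. In the list called without H9, 73 of 79 and 119 of 145 did.

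**Figure D4:**
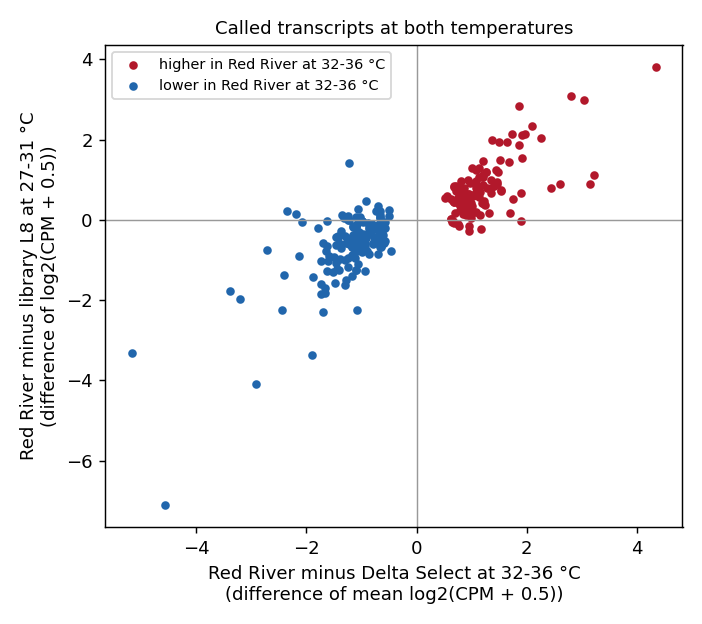
Called transcripts at both temperatures, with Red River minus Delta Select at 32 to 36 °C on the horizontal axis and Red River minus L8 at 27 to 31 °C on the vertical axis, both as differences of log2(CPM + 0.5). Of the 126 transcripts on the right, 117 lie above 0, and of the 147 on the left, 128 lie below 0.

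The 20 transcripts fitted as more than 16-fold higher in Red River fish (19 with the bounds above) were all higher at the low temperature too, with L8 below every Red River library for 19. Over all transcripts tested L8 lay below for 29.1%. L8 had 0 to 0.5647 CPM of these 20, and for some the lowest Red River library there had only 0.028 CPM. The filter could be passed through Red River libraries of either temperature, so these counts are a description and not separate support. Of the lower transcripts with a mean log2 CPM over the 18 libraries of 3 or more, a mean that includes the hybrids, 6 differed more than 4-fold. For all 6, L8 lay above every Red River library, at 1.522 to 359.8 CPM, where it did for 29.5% of all transcripts tested. Of the 15 lower transcripts past the same cut but at 4-fold or less, it did for 7. Of the 22 higher transcripts past the cut, L8 lay below every Red River library for 15. L8 is itself part of that mean, so these counts are a description too.

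The interaction of strain and temperature in edgeR called 0 of 96799 transcripts, with 11211 (11.6%) at an unadjusted p under 0.05. Its low-temperature Delta Select group holds L3 and L5, which carry the hybrid set, beside L8, which does not. The 0 therefore does not decide whether the strain difference itself changed with temperature. DESeq2 called 845 and limma-voom 0. Without L3 and L5 edgeR called 34, with L8 then the only Delta Select library of the low temperature and taken to vary like the other groups. Without L8, which leaves L3 and L5 alone, it called 2443, and without H9 it called 35.

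Hybrid fish of the low temperature lay on the Delta Select side for more than 50% of the 126 and of the 147, but not in every alternative list. Of the 126 transcripts higher in Red River fish, all 3 hybrid libraries lay below all 3 Red River libraries for 83 and above them for 9, where 20.4% of all transcripts tested were below and 23.9% above. Of the 147 lower ones, hybrids lay above for 79 and below for 12. In the list called from the 6 compared libraries alone, hybrids lay below for 47 and above for 12 of the 96 higher transcripts. Of the 110 lower ones they lay above for 58 and below for 3. In the list called without H9 they lay below for 51 and above for 2 of the 79 higher transcripts. Of the 145 lower ones they lay above for 67 and below for 18. The shares on the Delta Select side were under 50% for the 96 and the 145. The median difference, hybrid minus Red River on the log2(CPM + 0.5) scale, was -0.62 for the 126 and 0.39 for the 147, against -0.00269 over all transcripts tested. For the 6 transcripts over 4-fold lower at a mean log2 CPM of 3 or more, hybrids lay above for all 6. For 5 of them the low-temperature hybrid mean was also above the high-temperature Delta Select mean. That mean log2 CPM includes the hybrid libraries, so the cut itself favours transcripts high in hybrids, and no conclusion is drawn from these 6. Hybrid levels do not separate alleles of the parents, so the share of each was not determined.

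Tanks were compared by the median level of each set. Relative to the mean of the low-temperature Red River libraries, the median log2 level of the 126 was 0.32 (H1), 0.18 (H4) and 0.20 (H7) in Red River fish, and -0.75 (H3), -0.79 (H5) and -0.78 (H9) in Delta Select fish, where the choice of transcripts fixes the direction. In libraries outside the contrast, which entered the fit through its spread, it was -0.65 (L3), -0.64 (L5) and -0.66 (L8) in Delta Select fish of the low temperature, and between -0.51 and -0.66 in all 6 hybrid libraries. For the 147 it was -0.15 (H1), -0.06 (H4) and -0.17 (H7) in Red River fish, and 0.78 (H3), 1.10 (H5) and 0.98 (H9) in Delta Select fish. In the low-temperature Delta Select libraries it was 0.35 (L3), 0.48 (L5) and 0.53 (L8), and in hybrids between 0.33 and 0.57. The Delta Select medians of the 147 thus varied more between tanks and between temperatures than those of the 126, and no test of this was made. In both sets the choice of transcripts favours larger differences at the high temperature. For the transcripts called from the 6 compared libraries alone, the medians of the 96 higher were -0.45 (L3), -0.61 (L5) and -0.65 (L8), and those of the 110 lower were 0.61 (L3), 0.69 (L5) and 0.83 (L8). For those called without H9, H9 itself had medians of -0.63 for the 79 higher and 0.40 for the 145 lower transcripts, the nearest to 0 of the 3 tanks. Leaving a tank out of the calling favours such a place for it, and the same was not computed for H3 or H5. Among the 147, H5 was the highest of the 3 Delta Select tanks for 57, H9 for 51 and H3 for 39. H3 was the lowest of them for 66, H9 for 47 and H5 for 34. The choice of transcripts from these same tanks favours a sharing between them. The same counts were not computed over all transcripts, so they are a description.

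**Figure D5:**
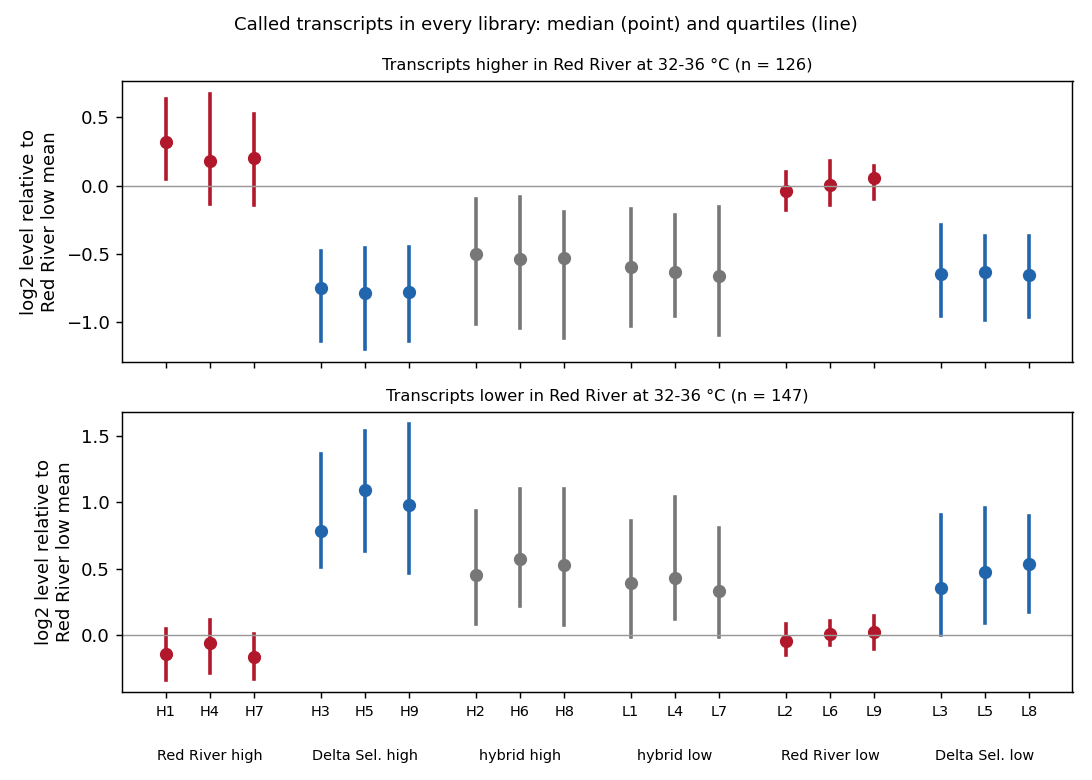
Median (point) and quartiles (line) of log2 levels in each of the 18 libraries, relative to the mean of the low-temperature Red River libraries, for the 126 transcripts higher (upper panel) and the 147 lower (lower panel) in Red River fish at 32 to 36 °C. Delta Select and hybrid medians lie between -0.51 and -0.79 in the upper panel and between 0.33 and 1.10 in the lower panel.

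The summed levels of both sets did not overlap between the strains, which the choice of transcripts favours. The 126 summed to 1270 (H1), 1299 (H4) and 1174 CPM (H7) in Red River fish, and 597.1 (H3), 537.8 (H5) and 546.9 CPM (H9) in Delta Select fish. The 147 summed to 942.4 (H1), 921.7 (H4) and 827.4 CPM (H7) in Red River fish, and 1971 (H3), 2016 (H5) and 1987 CPM (H9) in Delta Select fish.

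Some called identifiers ran closely together, and whether they are separate genes was not tested. Over the 12 libraries outside the comparison, linking transcripts whose levels had a Spearman correlation of at least 0.9 put 54 of the 126 higher transcripts into groups of 2 or more, the largest of 9, and left 72 single. Among the 147 lower ones 57 fell into groups, the largest of 15, and 90 were single. These libraries share the contrast of hybrid and channel catfish and of both temperatures, so the correlations are given as a description. The same grouping was not computed for transcripts that were not called, so it is not read as particular to the called ones.

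Over the 35378 transcripts whose mean log2 CPM was 1 or more, the median spread between tanks was alike in both strains. The root mean square log2 differences above were still larger for the pairs H3 and H9 (0.3881) and H5 and H9 (0.3819). Those of Red River pairs were 0.3493 at most. The median SD of log2(CPM + 0.5) was 0.157 for Red River fish and 0.1631 for Delta Select fish (n = 3 each), and it was larger in Delta Select for 52.67%. The median size of the strain difference was 0.1393, and 1.167% of the transcripts differed by more than 1. This is a difference between means of 3 tanks, so it is not set against the SDs, which are of single tanks.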

How the data were processed

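Per the labels' protocols, liver RNA of 18 tank pools was sequenced from 1 end over 50 bases. The table of raw counts that the authors deposited covers 144746 assembled transcripts. A further row that names no transcript held 24.16% to 25% of the reads of the 6 compared libraries and was left out. The authors also deposited a normalized signal, which equals the counts divided by 1 factor per library (largest relative deviation 5.1e-15) and served only to make this comparison. The submitters' processing notes list R 3.1.0, Bowtie2 2.1.0 and DESeq 1.12.1, with no role for any. How transcripts were assembled and counted, whether strand was used and where reads with several matches went is not given in the sources used here.

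Counts were fitted with edgeR 4.0.16 in R 4.3.3 (quasi-likelihood, robust, TMM scaling, 1 mean per group over all 18 libraries). The filter filterByExpr (minimum count 10, minimum total 15) kept 96799 transcripts. P-values were adjusted by Benjamini and Hochberg over all of them, with calls at 0.05. Alternatives used DESeq2 1.42.0, limma 3.58.1 (voom), other scalings, filters and sets of libraries. Fits without 1 library, or without L3 and L5, kept the same 96799 transcripts. The filter was applied anew to the 6 compared libraries (85420 tested) and to the 12 channel catfish libraries (90819 tested). Libraries of a group came from separate tanks, and spread between fish is not measured. Levels are CPM with TMM scaling. For numbers of detected transcripts libraries were thinned to 38550145 reads.

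At most 2 transcripts higher and 2 lower were named, the called ones of largest change whose mean log2 CPM over the 18 libraries was 3 or more and whose libraries did not overlap. For hybrid-type transcripts they are the 2 with the highest Delta Select mean. The comparison, the rules and the lists were chosen with earlier results of these data known.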

Additional observations from a re-analysis of the deposited data

How the results depend on the processing

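The strain comparison at the high temperature had 273 calls. Leaving out each of the 18 libraries in turn gave between 60 (without H7) and 460 calls (without L8), and calls were more than 1.5 times fewer without H1 (106), H4 (97), H5 (115) or H7. Without L3 and L5 there were 572, at a mean of at least 50 reads 141 (fewer transcripts tested), with only the 12 channel catfish libraries 162 and in DESeq2 821. In limma-voom the split was 127 higher and 84 lower in Red River fish, against 126 and 147. Some of these fits had fewer samples or transcripts, and the cause of the changes was not tested. The other alternatives stayed within 1.5 times.

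The interaction of strain and temperature, with L3 and L5 in its low-temperature Delta Select group, had 0 calls in edgeR. It had 34 without L3 and L5 and 845 in DESeq2, and between 0 and 2443 (without L8) when 1 library was left out. The other counts above 0 were 35 without H9, 4 without H3, and 1 each without H4, L2 and L5. The cause was not tested. The log2 fold changes of the 4 named transcripts kept their direction under all 28 alternatives.

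The difference in detected transcripts was -1882 at a minimum of 5 reads and between -1645.7 and -703.2 with 1 library left out. Strain-restricted transcripts called were 7, 0 under the stricter limits and, in an alternative added after seeing the data, 11 without H9. Of hybrid-type transcripts, the largest share in a compared library was 9.38%, 5.2% with the wider choice (9 of 173, in H5) and 18.8% when 0.2 CPM counted as present (6 of 32, in H5, a limit added after seeing the data). The share of called transcripts with the same direction at the low temperature was 89.7%. Its alternatives were also added after seeing the data. In them the share was 85.1% for those called without L3 and L5, 89.8% for the 206 called from the 6 compared libraries and 85.7% for the 224 called without H9. At an offset of 0.1 CPM it was 90.1%, and without 1 Red River library it was 87.9% to 89.4%. Depth leaves sparse transcripts uncertain, since 0.02616 CPM in H7 was a single read. No paired analysis was possible because the library numbers of the strains compared, 1, 4 and 7 against 3, 5 and 9, do not overlap.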
